A study of Mus musculus with 12 samples.

Results

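Complement and blood clotting are plasma enzyme cascades, and 46 mouse genes of these systems were followed here by gene symbol across liver arrays. The list was drawn up by function, with earlier results of these data known. It holds the lectin and classical pathway genes, the alternative pathway, the terminal complement genes, complement inhibitors and receptors, clotting factors, anticoagulants and fibrinolysis genes. Of the 46, 42 have a probe set annotated with that symbol alone, out of 18193 such genes on the array, and all 42 passed the filter on dim probe sets that left 12760 genes for testing. C4b shares its only probe set with C4a and is not reported by name, and C3, Cfd and Cpb2 were not analysed here. Each gene is represented by its probe set with the highest mean over the 12 arrays, a choice that touches the 11 genes with more than 1 probe set.

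The arrays hold total liver RNA of BALB/c mice in 4 groups of 3 mice each. TGFB KO mice lack transforming growth factor beta 1 (Tgfb1), a cytokine that restrains lymphocytes, and carry intact Ifng. Wild type BALB/c mice are their controls. IFNko TGFB1 KO mice are labelled as lacking Tgfb1 and interferon gamma (Ifng), and INFko TGFB+ mice as lacking Ifng and keeping Tgfb1, without saying whether they carry 1 or 2 intact copies. The labels give no age, sex or promoter-restricted deletion. Each array is a whole liver RNA sample, in which fewer cells of a type and less RNA per cell cannot be told apart.

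Most complement and clotting proteins of plasma are made by hepatocytes and secreted as inactive precursors. Complement is started by antibody-bound C1q, by mannose-binding lectins on sugars or by spontaneous turnover, and ends in the membrane attack complex, while its small fragments call in myeloid cells through their own receptors. Clotting is started by tissue factor outside the vessel or by the contact system, converges on thrombin and fibrin, and is held back by antithrombin, protein C and plasmin. In inflammation the liver is known to raise some of these proteins, fibrinogen among them, as positive acute phase proteins, and to lower others.

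Every array had been scaled to a trimmed mean signal of 150.001, and the number of arrays limits the precision. The Tgfb1 probe set used read 68.1 ± 21.2 in TGFB KO and 319 ± 184 in wild type, then 40.2 ± 13.9 in IFNko TGFB1 KO and 188 ± 29.5 in INFko TGFB+ (mean ± SD, n = 3 each). The Ifng probe set read 127 ± 64.5 in TGFB KO and 18.4 ± 10.8 in wild type, and still 60.9 ± 20.5 in the livers labelled IFNko TGFB1 KO, against 5.36 ± 3.72 in INFko TGFB+. No source used here says which part of Ifng was disrupted, so the Ifng signal neither bears out nor goes against the label. A pair of arrays stood apart, both from IFNko TGFB1 KO. Array 1 had a median signal of 61.3, against 33.8 to 42.6 on the other 11. Array 2 was the lowest of the 12 for 32 of the 42 genes, against 12.5% of all genes, and its genes lay a median of 1.63 log2 units under the wild type mean, against 0.64 and 0.34 units for arrays 1 and 3 of its group. Counts of calls are given with and without them, as are values of genes called that moved by over 1.5 times. Several members not called moved as much, and the larger shifts are given where the gene is described. By Xist and Eif2s3y signal, array 2 of IFNko TGFB1 KO came from a female and arrays 1 and 3 of that group from males.

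With Ifng intact, 7 of the 42 genes were higher and 10 lower where Tgfb1 was lost (limma, adjusted p under 0.05), where 12.2% of all genes tested were higher and 11.9% lower. The 7 genes higher in TGFB KO than in wild type were C6, C5ar1, C3ar1, Cfp, C2, Serping1 and F3, and 6 of them belong to complement. The 10 lower genes were C8g, Klkb1, Proc, Hc, Serpind1, F7, Serpinf2, Cfi, F9 and Serpinc1, of which 7 act in clotting or fibrinolysis and 3 in complement. The median log2 fold change was -0.60 over the 42 genes and -0.06 over all genes. Split by system, the 19 complement genes had 6 higher and 3 lower, and the 23 clotting and fibrinolysis genes had 1 higher and 7 lower. The 19 complement genes did not move together, since 11 of them had a negative fold change. They do not include C3, C4b or Cfd.

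In livers labelled as lacking Ifng, 4 genes were higher and 25 lower in IFNko TGFB1 KO relative to INFko TGFB+, where 12.7% of all genes were higher and 13.1% lower. The median log2 fold change was -0.98 for the 42 genes, or -0.62 without array 2 of IFNko TGFB1 KO, and -0.01 for all genes. The 4 higher genes were C6, Cfp, C3ar1 and C5ar1. Of the 23 clotting and fibrinolysis genes none was higher and 16 were lower (limma; at an unadjusted p under 0.05 the counts were also 0 and 16), and of the 19 complement genes 4 were higher and 9 lower. These arrays are not those of the first comparison. All 10 genes lower in TGFB KO were also lower in IFNko TGFB1 KO, and the 4 genes higher in IFNko TGFB1 KO were among the 7 higher in TGFB KO. Over all genes, 63.1% of those lower in TGFB KO were lower in IFNko TGFB1 KO too. Across the 42 genes the log2 fold changes of the comparisons had a Pearson r of 0.91 and a Spearman rho of 0.82, given as a description since the genes share the arrays, and r was 0.73 over all genes. For 37 of the 42 genes (88.1%) the fold change was lower in the Ifng-deficient background, against 49.2% of all genes. Without array 2 of IFNko TGFB1 KO it was lower for 20 (47.6%), so this lean rests on that array. Without array 2 of IFNko TGFB1 KO, the counts of calls were 7 higher and 23 lower for TGFB KO, whose spread is estimated over all arrays, and 4 higher and 22 lower for IFNko TGFB1 KO. The calls gained in TGFB KO were those of Mbl1, Mbl2, Masp1, Masp2, C8a, F2, F5, F10, F11, F12, F13b, Proz and Plg. Without array 1 of IFNko TGFB1 KO the counts were 6 and 12 for TGFB KO, and 4 and 25 for IFNko TGFB1 KO. With the spread estimated from the compared groups alone, they were 6 and 21 for TGFB KO, and 4 and 10 for IFNko TGFB1 KO.

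The sizes of the falls in IFNko TGFB1 KO rest on array 2 more than their direction does. Without it all 25 lower genes kept a negative log2 fold change and all 25 were smaller in size, 14 of them by over 1.5 times, and the calls of Proz (-0.96), Serpinc1 (-0.49) and Vtn (-0.41) were lost. The values of the other 12 of these 14 were then -1.65 for Mbl2, -1.41 for Klkb1, -1.11 for Masp1, -1.01 for C8b, -0.94 for F13b, -0.82 for Hc, -0.75 for Mbl1, -0.74 for F5, -0.68 for Serpind1, -0.66 for F10, -0.61 for Plg and -0.52 for Cfi. Without array 1 none of the 25 moved by over 1.5 times.

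**Figure D1:**
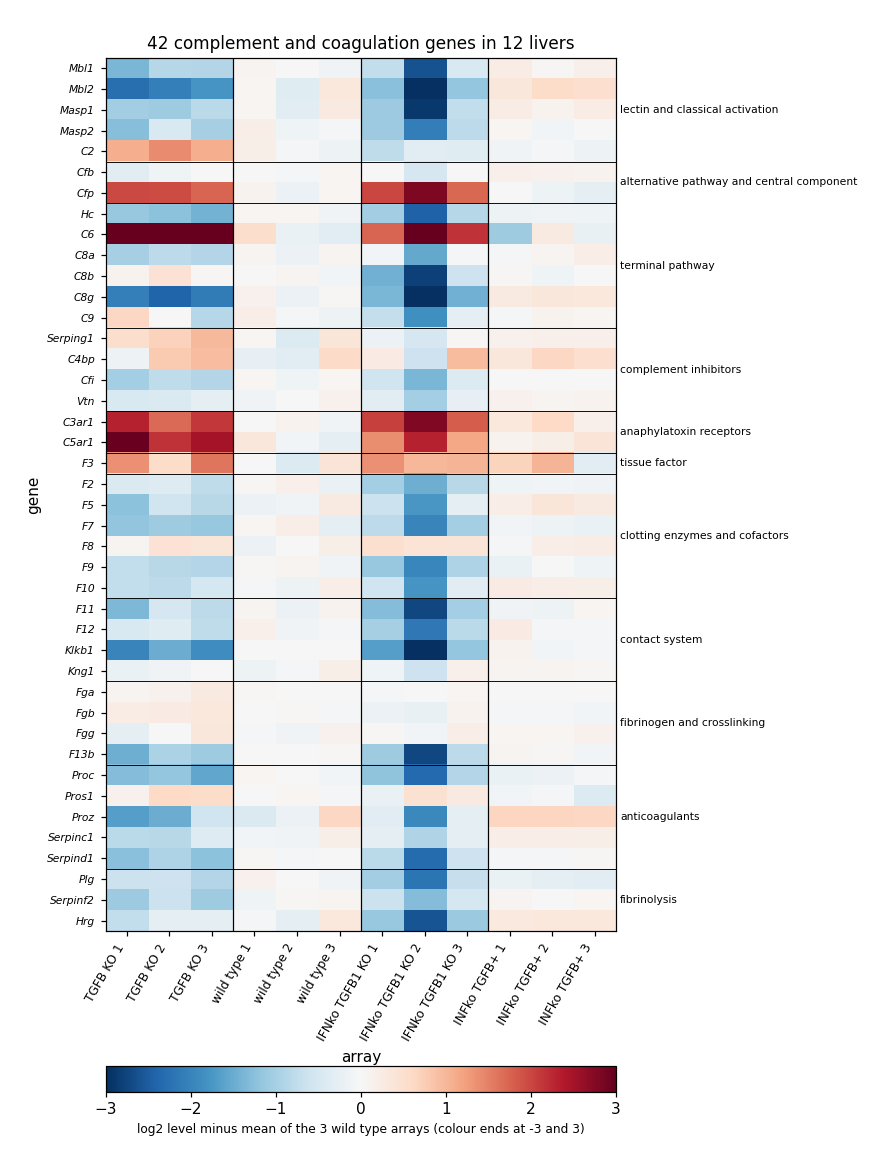
Colours give the log2 level of each of the 42 genes (rows, by role) on each of the 12 arrays (columns, by group) minus the mean of the 3 wild type arrays, with the scale ending at -3 and 3. Blue rows such as C8g, Hc, Klkb1 and Proc and the red rows of C6, Cfp, C3ar1 and C5ar1 recur in both groups lacking Tgfb1. Not all hepatocyte products are blue, since Fga, Fgb and Fgg stay pale and C8b is not blue in TGFB KO. Array 2 of IFNko TGFB1 KO is the darkest blue column.

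In the lectin pathway, which senses sugars on microbes and damaged cells, the probe sets standing for all 4 genes passed as lower where Tgfb1 and Ifng were both lost, though for Masp1 the other probe sets differed. Mbl2, a mannose-binding lectin, read 2028, 156 and 2574 in IFNko TGFB1 KO, against 7358, 8207 and 8513 in INFko TGFB+, a log2 fold change of -3.01 ± 0.82 (SE, here and below; adjusted p = 0.0187). Leaving out array 2 of IFNko TGFB1 KO gave -1.65 (adjusted p = 0.00084). It read 1216, 1419 and 1731 in TGFB KO and 5737, 4915 and 7640 in wild type, a log2 fold change of -2.03 ± 0.82 that missed the threshold (adjusted p = 0.0957). In neither pair did the groups overlap. The fold change in TGFB KO passed (adjusted p = 4.75e-05) once array 2 of IFNko TGFB1 KO, which adds to the spread estimated over all arrays, was left out. The call in IFNko TGFB1 KO was lost without array 2 or 3 of INFko TGFB+ (adjusted p = 0.0549 and 0.0516).

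Mbl1, the other mannose-binding lectin, had log2 fold changes of -1.04 ± 0.43 in TGFB KO (adjusted p = 0.108) and -1.41 ± 0.43 in IFNko TGFB1 KO (adjusted p = 0.0327), the second lost without any of the 3 INFko TGFB+ arrays (0.0738 to 0.0901). Masp2, the protease that cleaves C4 and C2 when a lectin binds, had -0.91 ± 0.31 (adjusted p = 0.0512) and -1.31 ± 0.31 (adjusted p = 0.00923). A second Masp2 probe set passed in both, with -1.22 ± 0.38 and -1.89 ± 0.38 (adjusted p = 0.0441 and 0.00522 over 22941 probe sets). Masp1 encodes the partner protease that activates the Masp2 protein. Its probe set read 674, 227 and 998 in IFNko TGFB1 KO, against 2017, 1873 and 2025 in INFko TGFB+ (log2 fold change -1.76 ± 0.43, adjusted p = 0.0114), and 797, 777 and 930 in TGFB KO, against 1715, 1356 and 2097 in wild type (-0.97 ± 0.43, adjusted p = 0.128). The other 4 probe sets of Masp1 gave -1.52, -0.87, -0.74 and -0.70 in TGFB KO (adjusted p = 0.00828, 0.00281, 0.0165 and 0.0749 over 22941 probe sets). The same probe sets gave -0.82, 0.33, 0.40 and 0.25 in IFNko TGFB1 KO (adjusted p = 0.112, 0.169, 0.157 and 0.523), so a single one of them shared the direction of the brightest and none passed. With the mean of all 5, Masp1 had -0.32 in IFNko TGFB1 KO, which missed the threshold (adjusted p = 0.136), and -0.96 in TGFB KO (adjusted p = 0.000607).

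C2, the serine protease part of the classical and lectin C3 convertase, moved the other way in TGFB KO. It read 1232, 1557 and 1224 in TGFB KO, against 641, 569 and 518 in wild type, a log2 fold change of 1.19 ± 0.18 (adjusted p = 0.000619). It read 318, 465 and 446 in IFNko TGFB1 KO, against 531, 555 and 522 in INFko TGFB+, a log2 fold change of -0.38 ± 0.18 (adjusted p = 0.138), or -0.24 without array 1 of IFNko TGFB1 KO. On this probe set every TGFB KO array was above every other array, and every IFNko TGFB1 KO array was below every other. On the other C2 probe sets the IFNko TGFB1 KO arrays overlapped those of wild type. The difference of the Tgfb1 effects was -1.57 ± 0.25 log2 units (adjusted p = 0.0133), and it was the only 1 of the 42 genes past the threshold for this difference, with none higher, where 0.627% of all genes were lower and 0.243% higher. At an unadjusted p under 0.05 there were 0 higher and 5 lower of the 42, with no share over all genes set beside them. All 3 probe sets of C2 gave a similar difference, between -1.48 and -1.57. Without array 2 of INFko TGFB+ the adjusted p was 0.0537, and the call held without array 1 or 2 of IFNko TGFB1 KO. Cfb, the alternative pathway protease that lies next to C2 in the genome with no protein-coding gene between them, had log2 fold changes of -0.14 ± 0.17 in TGFB KO and -0.30 ± 0.17 in IFNko TGFB1 KO, and passed in neither (adjusted p = 0.62 and 0.232). The second Cfb value was -0.13 without array 2 of IFNko TGFB1 KO.

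Cfp encodes properdin, the stabilizer of the alternative pathway convertase, which is made by myeloid cells more than by hepatocytes. It read 1931, 1952 and 1710 in TGFB KO, against 528, 429 and 529 in wild type, a log2 fold change of 1.89 ± 0.24 (adjusted p = 0.000245). In IFNko TGFB1 KO it read 1705, 3165 and 1674, against 490, 450 and 408 in INFko TGFB+, a log2 fold change of 2.32 ± 0.24 (adjusted p = 9.99e-05). The groups lay far apart, with array 2 of IFNko TGFB1 KO the highest of the 12. A second Cfp probe set had 0.78 ± 0.53 and -0.46 ± 0.53, past the threshold in neither comparison, and with the mean of both probe sets the second call was lost (adjusted p = 0.053).

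The genes for the receptors of the small complement fragments rose in both settings. C5ar1, the receptor for C5a on neutrophils and macrophages, read 273, 149 and 190 in TGFB KO, against 35.4, 19.1 and 13.1 in wild type, a log2 fold change of 2.54 ± 0.31 (adjusted p = 0.000157). It read 106, 184 and 65.5 in IFNko TGFB1 KO, against 21.7, 21.7 and 28.2 in INFko TGFB+, a log2 fold change of 1.40 ± 0.31 (adjusted p = 0.00623). The difference of these effects was -1.13 ± 0.43 (adjusted p = 0.322), and a second C5ar1 probe set gave 1.95 ± 0.31 and 2.18 ± 0.31, with no smaller value in the Ifng-deficient background. C3ar1, the C3a receptor, read 214, 134 and 182 in TGFB KO, against 34.0, 33.4 and 24.4 in wild type (log2 fold change 2.05 ± 0.25, adjusted p = 0.000175). It read 188, 311 and 144 in IFNko TGFB1 KO, against 38.0, 47.4 and 31.4 in INFko TGFB+ (1.86 ± 0.25, adjusted p = 0.000431). Neither receptor had overlapping groups, but without array 1 of IFNko TGFB1 KO another C3ar1 probe set had the highest mean, and the log2 fold change in TGFB KO was 0.85 (adjusted p = 0.0548). Tested on its own over all arrays that probe set had 0.83 ± 0.35 in TGFB KO and 1.02 ± 0.35 in IFNko TGFB1 KO (adjusted p = 0.132 and 0.0637), and the third had 2.46 ± 0.46 and 1.88 ± 0.46 (adjusted p = 0.00345 and 0.0143). The control signals of C5ar1 lie below the median signal of their arrays, and since 16 was added before taking logs the fold changes of such dim genes are understated.

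Markers of macrophages moved with Cfp, C3ar1 and C5ar1. All 10 macrophage markers were higher in TGFB KO and in IFNko TGFB1 KO, and none of them was at 0. Their summed signal was 38241 to 42584 in TGFB KO against 5297 to 6588 in wild type, and 27103 to 39048 in IFNko TGFB1 KO against 5141 to 5391 in INFko TGFB+. Over all genes, 12.2% were higher in TGFB KO and 12.7% in IFNko TGFB1 KO. Of 7 neutrophil and monocyte markers tested, 6 were higher in TGFB KO and 4 in IFNko TGFB1 KO. Their part in the receptor and properdin signals was not tested.

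The C5ar1 promoter is printed because it was the only 1 of the 34 member genes with a promoter entry that held GAAANNGAA, letters of the interferon response element type, which 7.1% of all 32851 promoters hold. The window is the 250 bases before the RefSeq start (chr7:16259339-16259588, minus strand, GRCm38.p6), 5′ to 3′, with the match to the reverse strand in capitals, 66 to 58 bases before the start. A match describes the letters only.
C5ar1: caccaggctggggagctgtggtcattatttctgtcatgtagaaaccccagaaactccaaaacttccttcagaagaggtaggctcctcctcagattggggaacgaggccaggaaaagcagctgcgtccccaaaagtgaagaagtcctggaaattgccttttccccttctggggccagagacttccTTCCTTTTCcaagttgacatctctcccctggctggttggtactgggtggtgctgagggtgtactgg

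In the terminal pathway, whose proteins build the membrane attack complex, the genes went separate ways. C6, which joins C5b as the complex begins to form, had the highest fold change of the 42 genes in both comparisons. It read 1314, 1299 and 1309 in TGFB KO, against 120, 63.0 and 57.2 in wild type, a log2 fold change of 3.77 ± 0.37, or 13.6-fold (adjusted p = 3.51e-05). It read 300, 741 and 418 in IFNko TGFB1 KO, against 28.2, 94.4 and 62.2 in INFko TGFB+, a log2 fold change of 2.64 ± 0.37, or 6.23-fold (adjusted p = 0.00056). The 3 TGFB KO livers were nearly identical and above every IFNko TGFB1 KO liver. C9, which forms the pore, passed in neither comparison, with -0.09 ± 0.40 and -0.98 ± 0.40, the second -0.53 without array 2 of IFNko TGFB1 KO.

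Hc encodes complement C5, the source of the C5a fragment. It read 2863, 2614 and 2490 in TGFB KO, against 6137, 6868 and 6264 in wild type, with a log2 fold change of -1.27 ± 0.32 (adjusted p = 0.015, but 0.0525 without array 3 of TGFB KO). It read 2533, 1124 and 3450 in IFNko TGFB1 KO, against 5912, 5818 and 6149 in INFko TGFB+, a log2 fold change of -1.31 ± 0.32 (adjusted p = 0.0116). No array lacking Tgfb1 reached the lowest control array for this gene. The Hc promoter holds the HNF1 letters GTTAATNAT, in capitals, on the reverse strand 77 to 69 bases before the start (chr2:35061413-35061662, minus strand, RefSeq, GRCm38.p6). Those letters occur in 0.7% of all promoters and in those of 4 member genes, C4bp, F13b, Fga and Hc.
Hc: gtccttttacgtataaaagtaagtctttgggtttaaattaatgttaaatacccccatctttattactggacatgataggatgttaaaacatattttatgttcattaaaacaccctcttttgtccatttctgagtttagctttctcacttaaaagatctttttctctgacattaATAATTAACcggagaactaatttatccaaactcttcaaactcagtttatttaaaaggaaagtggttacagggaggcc

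The C8 subunit genes differed among themselves. C8g, the lipocalin subunit, fell furthest of the 42 genes in TGFB KO. It read 995, 774 and 973 in TGFB KO, against 4482, 4064 and 4639 in wild type, a log2 fold change of -2.18 ± 0.44 (adjusted p = 0.00406). It read 1362, 374 and 1520 in IFNko TGFB1 KO, against 5167, 5253 and 5357 in INFko TGFB+, a log2 fold change of -2.40 ± 0.44 (adjusted p = 0.00243). The groups were well separated in both pairs. C8b, the beta subunit, read 1129, 1428 and 1074 in TGFB KO and 1037, 1148 and 1028 in wild type, overlapping groups with a log2 fold change of 0.19 ± 0.41 (adjusted p = 0.778). It read 354, 150 and 684 in IFNko TGFB1 KO, against 1100, 982 and 1097 in INFko TGFB+, a log2 fold change of -1.59 ± 0.41 (adjusted p = 0.0141). Leaving out array 2 of IFNko TGFB1 KO gave -1.01 (adjusted p = 0.0143). The difference of these effects was -1.79 ± 0.58 and missed the threshold (adjusted p = 0.233). C8a, the alpha subunit gene that neighbours C8b with no protein-coding gene between them, had -0.89 ± 0.32 and -0.64 ± 0.32 and passed in neither comparison. Without array 2 of IFNko TGFB1 KO, C8a passed as lower in TGFB KO (adjusted p = 0.00112) and had -0.15 in IFNko TGFB1 KO.

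Among the complement inhibitors, Cfi, the protease that degrades C3b and C4b, was lower in both settings, with 7133 ± 645 in TGFB KO against 13190 ± 1146 in wild type and 7247 ± 2735 in IFNko TGFB1 KO against 12857 ± 1056 in INFko TGFB+ (SD, n = 3). Its log2 fold changes were -0.89 ± 0.22 (adjusted p = 0.0135) and -0.80 ± 0.22 (adjusted p = 0.0219). The first was lost without array 1 of TGFB KO (0.0516) and the second without any INFko TGFB+ array (0.0593 to 0.0652). Serping1, the C1 inhibitor, which also blocks kallikrein and factor XII, read 9193, 10023 and 13549 in TGFB KO, against 6141, 5168 and 8644 in wild type, a log2 fold change of 0.73 ± 0.22 (adjusted p = 0.0324). That call was lost without array 1 or 2 of wild type or array 2 or 3 of TGFB KO (adjusted p = 0.0643 to 0.12). In IFNko TGFB1 KO it had -0.36 ± 0.22 (adjusted p = 0.257), or -0.21 without array 2 of that group. Vtn, vitronectin, which blocks insertion of the attack complex, had -0.38 ± 0.20 (adjusted p = 0.2) and -0.64 ± 0.20 (adjusted p = 0.0357), a call that was lost without any INFko TGFB+ array or without array 2 of IFNko TGFB1 KO (0.0865 to 0.102). Another Vtn probe set had -0.78 ± 0.28 and -1.10 ± 0.28, and passed in IFNko TGFB1 KO only (adjusted p = 0.0796 and 0.0185 over 22941 probe sets). C4bp, the C4b-binding protein, passed in neither comparison, with 0.52 ± 0.40 and -0.30 ± 0.40. The second C4bp value was 0.11 without array 2 of IFNko TGFB1 KO.

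**Figure D2:**
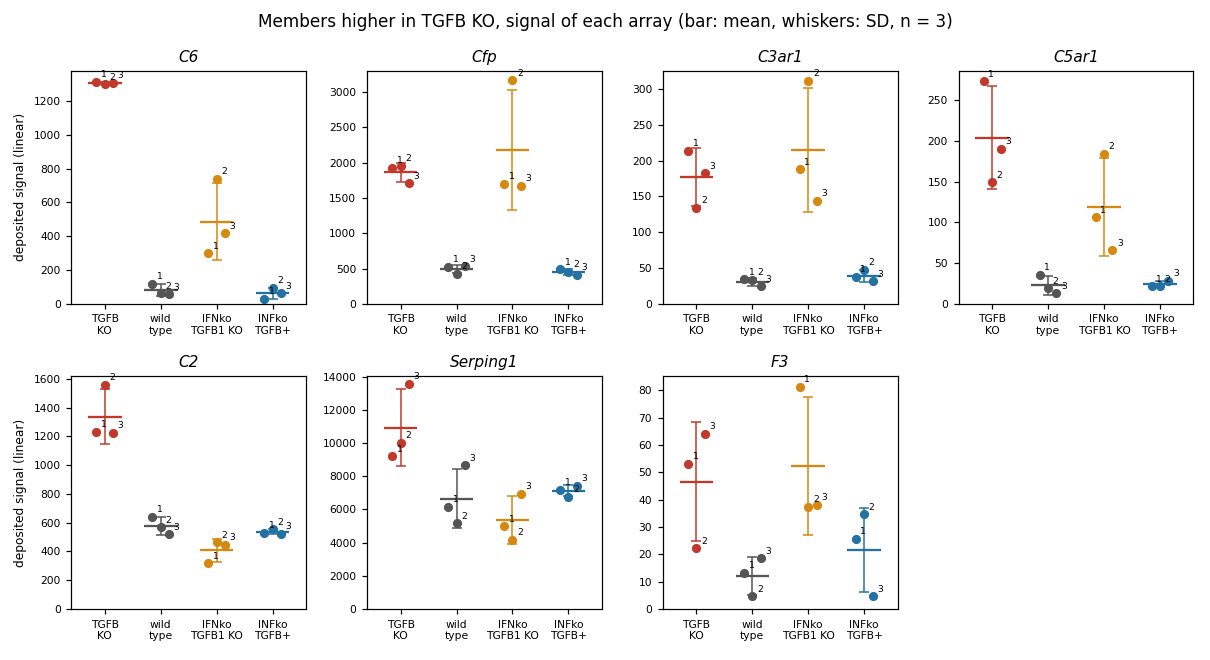
Points are the deposited signals of single arrays (numbered by replicate) of the 7 genes higher in TGFB KO than in wild type, on a linear axis, with the mean as a bar and the SD as whiskers (n = 3). C6 sits between 1299 and 1314 in TGFB KO, against at most 120 in wild type, and C2 is highest in TGFB KO and lowest in IFNko TGFB1 KO.

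F3, tissue factor, the cell surface trigger of clotting, was the only 1 of the 23 clotting and fibrinolysis genes among the 42 that passed as higher in TGFB KO. It read 53.2, 22.2 and 64.1 in TGFB KO, against 13.3, 4.68 and 18.6 in wild type, dim signals with a log2 fold change of 1.17 ± 0.36 (adjusted p = 0.0363). The call was lost without array 1 or 2 of wild type or array 1 or 3 of TGFB KO (adjusted p = 0.0805 to 0.125). It was also lost with the deposited scaling (0.0554), a pseudocount of 1 (0.0589) and no filter (0.0552). It read 81.4, 37.5 and 38.1 in IFNko TGFB1 KO and 25.6, 34.6 and 4.74 in INFko TGFB+, a log2 fold change of 0.67 ± 0.36 (adjusted p = 0.203). The groups of this second pair were close and its interval ran from -0.12 to 1.47. The F3 promoter was the only member promoter with the NF-kappaB type letters GGANTTTCC, which 1.1% of all promoters hold, 112 to 104 bases before the start (chr3:121723287-121723536, plus strand, RefSeq, GRCm38.p6), in capitals.
F3: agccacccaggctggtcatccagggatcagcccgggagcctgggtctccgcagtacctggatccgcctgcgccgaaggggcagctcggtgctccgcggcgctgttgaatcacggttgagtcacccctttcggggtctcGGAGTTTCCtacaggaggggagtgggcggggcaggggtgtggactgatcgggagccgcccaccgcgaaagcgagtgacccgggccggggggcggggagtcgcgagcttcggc

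Of the 4 vitamin K-dependent clotting enzymes, F7 and F9 passed as lower in TGFB KO and all 4 in IFNko TGFB1 KO. F7, which binds tissue factor, read 604, 656 and 622 in TGFB KO, against 1443, 1667 and 1178 in wild type, a log2 fold change of -1.13 ± 0.27 (adjusted p = 0.00955). It had -1.12 ± 0.27 in IFNko TGFB1 KO (adjusted p = 0.00946), so both settings gave almost the same value. F9, the hemophilia B factor, read 1152, 1089 and 1059 in TGFB KO, against 2005, 2184 and 1905 in wild type, a log2 fold change of -0.82 ± 0.23 (adjusted p = 0.0245). It was lost without any of the TGFB KO arrays or without array 1 or 2 of wild type (0.0524 to 0.0717). In IFNko TGFB1 KO F9 read 761, 501 and 1032, against 1780, 2063 and 1850 in INFko TGFB+ (-1.23 ± 0.23, adjusted p = 0.0028). With all arrays, F2, prothrombin, and F10 passed only in IFNko TGFB1 KO, with -0.99 ± 0.19 (adjusted p = 0.00324) and -1.10 ± 0.30 (adjusted p = 0.0186), against -0.52 ± 0.19 and -0.69 ± 0.30 in TGFB KO (adjusted p = 0.0691 and 0.123). The differences of these effects did not pass (adjusted p = 0.548 and 0.764). Without array 2 of IFNko TGFB1 KO, F2 and F10 also passed as lower in TGFB KO (adjusted p = 0.0285 and 0.00779). The F10 call in IFNko TGFB1 KO was lost without array 1 or 2 of INFko TGFB+ (0.057 and 0.0551), and with the mean of its probe sets (0.0717). The 2 other F10 probe sets gave -0.80 and -0.86 in IFNko TGFB1 KO (adjusted p = 0.215 and 0.134), and -0.06 and -0.05 in TGFB KO (adjusted p = 0.952 and 0.949).

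The cofactors differed from each other. F5, the cofactor of factor X, had -0.88 ± 0.32 in TGFB KO (adjusted p = 0.0669) and -1.17 ± 0.32 in IFNko TGFB1 KO (adjusted p = 0.0196, and 0.0504 to 0.0635 without any of the INFko TGFB+ arrays). A second F5 probe set passed in both, with -0.90 ± 0.27 and -0.99 ± 0.27 (adjusted p = 0.0387 and 0.0243 over 22941 probe sets). F8, the hemophilia A factor, which endothelial cells make rather than hepatocytes, read 177, 233 and 216 in TGFB KO, against 140, 155 and 177 in wild type, and 238, 240 and 217 in IFNko TGFB1 KO, against 155, 185 and 185 in INFko TGFB+. Its log2 fold change was 0.29 ± 0.16 in each comparison and passed in neither (adjusted p = 0.226 and 0.216).

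In the contact system, Klkb1, plasma prekallikrein, fell in both settings. It read 958, 1344 and 1044 in TGFB KO, against 3915, 4169 and 4170 in wild type, a log2 fold change of -1.78 ± 0.50 (adjusted p = 0.0229). It read 1018, 284 and 1705 in IFNko TGFB1 KO, against 4342, 3807 and 4073 in INFko TGFB+, a log2 fold change of -2.19 ± 0.50 (adjusted p = 0.00769). Array 2 of IFNko TGFB1 KO left out, it had -1.41 (adjusted p = 0.00109). No array lacking Tgfb1 reached the lowest control array. The TGFB KO call was lost without any wild type array or without array 1 or 3 of TGFB KO (adjusted p = 0.0555 to 0.0758). F11, the next gene along the chromosome, and F12, which starts the contact cascade, passed in IFNko TGFB1 KO, with -1.61 ± 0.38 (adjusted p = 0.00876) and -1.37 ± 0.30 (adjusted p = 0.00623), and not in TGFB KO, with -0.88 ± 0.38 and -0.53 ± 0.30 (adjusted p = 0.114 and 0.238). Without array 2 of IFNko TGFB1 KO, both passed as lower in TGFB KO too (adjusted p = 0.0116 and 0.039). Kng1, kininogen, the cofactor and bradykinin source, had -0.10 ± 0.20 and -0.26 ± 0.20 and passed in neither. The second Kng1 value was -0.05 without array 2 of IFNko TGFB1 KO. Another Kng1 probe set had -0.22 ± 0.27 and -0.75 ± 0.27, also past the threshold in neither (adjusted p = 0.628 and 0.0721 over 22941 probe sets).

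**Figure D3:**
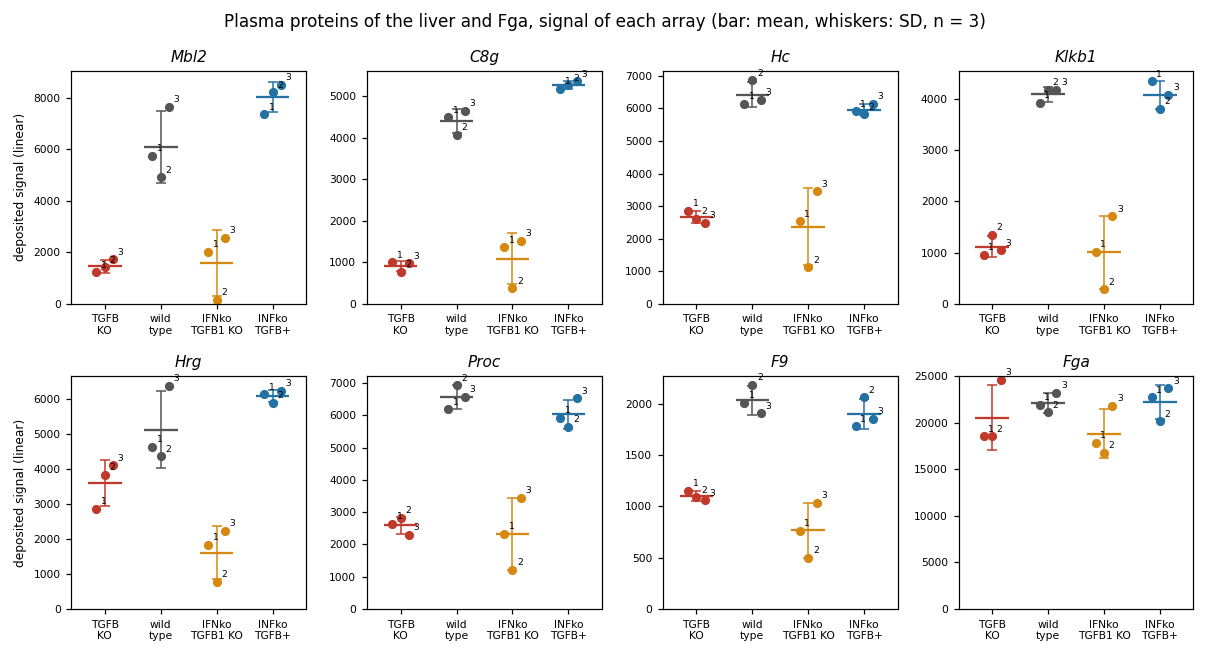
Points are the deposited signals of single arrays (numbered by replicate) of 7 genes and of Fga, on linear axes from 0, with the mean as a bar and the SD as whiskers (n = 3). The 7 genes passed as lower in IFNko TGFB1 KO, and all but Mbl2 and Hrg also in TGFB KO. Klkb1 lies between 958 and 1344 in TGFB KO, against 3915 to 4170 in wild type, while the 4 groups of Fga overlap.

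The fibrinogen genes, whose products form the clot, passed in no comparison, as did F8, Kng1 and Pros1 among the other clotting and fibrinolysis genes. Fga read 18550, 18523 and 24588 in TGFB KO, against 21916, 21106 and 23221 in wild type, and 17859, 16794 and 21793 in IFNko TGFB1 KO, against 22728, 20135 and 23702 in INFko TGFB+. The log2 fold changes in TGFB KO were 0.16 ± 0.13 for Fga, 0.26 ± 0.14 for Fgb and 0.03 ± 0.17 for Fgg (adjusted p = 0.424, 0.213 and 0.927). In IFNko TGFB1 KO they were 0.01 ± 0.13, -0.03 ± 0.14 and -0.03 ± 0.17. These signals lie near the top of each array, where quantile normalization sets every array to the same values, and under the deposited scaling the TGFB KO values were -0.12, 0.04 and -0.13. For IFNko TGFB1 KO the deposited scaling gave -0.24, -0.25 and -0.22, and median centring -0.49, -0.50 and -0.46, past the threshold for none (adjusted p from 0.191 to 0.494). The 3 genes lie side by side with no protein-coding gene between them. F13b, the carrier subunit of the crosslinking factor XIII, went lower, with -1.16 ± 0.39 in TGFB KO (adjusted p = 0.0511) and -1.54 ± 0.39 in IFNko TGFB1 KO (adjusted p = 0.0134).

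The promoters of these 4 genes are printed to set the letters of STAT, C/EBP and HNF1 beside the fibrinogen signals, which passed in no comparison, and the F13b signal, which passed as lower in IFNko TGFB1 KO. Fga (chr3:83025903-83026152, plus strand), Fgb (chr3:83049864-83050113, minus strand), Fgg (chr3:83007474-83007723, plus strand) and F13b (chr1:139501457-139501706, plus strand) are given as the 250 bases before the RefSeq start (GRCm38.p6), 5′ to 3′. Capitals mark matches on either strand to the STAT letters TTCNNNGAA, the C/EBP letters TTGCNNAA and the HNF1 letters GTTAATNAT. None of the matches overlap.
Fga: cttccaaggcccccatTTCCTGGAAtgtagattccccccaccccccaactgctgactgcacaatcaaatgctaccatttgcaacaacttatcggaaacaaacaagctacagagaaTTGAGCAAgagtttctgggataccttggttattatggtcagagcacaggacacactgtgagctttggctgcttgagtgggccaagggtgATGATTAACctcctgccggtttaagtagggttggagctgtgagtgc
Fgb: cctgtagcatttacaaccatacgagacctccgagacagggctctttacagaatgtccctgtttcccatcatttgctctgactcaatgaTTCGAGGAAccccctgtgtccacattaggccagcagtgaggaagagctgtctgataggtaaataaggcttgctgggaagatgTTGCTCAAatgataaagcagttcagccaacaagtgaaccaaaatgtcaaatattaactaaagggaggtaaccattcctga
Fgg: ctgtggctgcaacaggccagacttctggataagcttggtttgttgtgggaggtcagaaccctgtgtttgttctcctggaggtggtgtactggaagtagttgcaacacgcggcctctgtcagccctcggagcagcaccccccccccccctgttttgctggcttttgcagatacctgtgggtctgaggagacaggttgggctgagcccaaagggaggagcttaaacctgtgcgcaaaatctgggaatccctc
F13b: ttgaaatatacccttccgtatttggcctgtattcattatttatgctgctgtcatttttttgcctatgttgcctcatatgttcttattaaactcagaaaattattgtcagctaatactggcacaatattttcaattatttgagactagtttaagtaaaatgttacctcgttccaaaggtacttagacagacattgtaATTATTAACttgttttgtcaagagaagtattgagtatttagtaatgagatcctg

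Fga held the letters of all 3 motifs, Fgb those of STAT and C/EBP, F13b that of HNF1, and Fgg none of these in its window. The STAT letters occur in 7.0% of all promoters and in those of 6 of 34 member genes, namely C8a, F9, Fga, Fgb, Masp2 and Pros1. The C/EBP letters occur in 9.6% of all promoters and in those of 7 member genes, namely C9, F11, F9, Fga, Fgb, Hrg and Klkb1. Among genes holding the C/EBP letters, Fgb passed in no comparison, while Klkb1 fell in both.

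Among the anticoagulants, the natural brakes on clotting, 3 of 5 were lower in TGFB KO and 4 of 5 in IFNko TGFB1 KO. Over all genes tested, 11.9% and 13.1% were lower. Proc, protein C, which inactivates factors V and VIII, read 2646, 2827 and 2296 in TGFB KO, against 6187, 6926 and 6579 in wild type, a log2 fold change of -1.33 ± 0.30 (adjusted p = 0.00717). It read 2332, 1223 and 3439 in IFNko TGFB1 KO, against 5921, 5654 and 6528 in INFko TGFB+, also -1.33 ± 0.30 (adjusted p = 0.00687). Serpind1, heparin cofactor II, read 3474, 4338 and 3631 in TGFB KO, against 8386, 8296 and 8741 in wild type (-1.14 ± 0.34, adjusted p = 0.0329), and had -1.22 ± 0.34 in IFNko TGFB1 KO (adjusted p = 0.0222). Its groups did not overlap, but the first call was lost when any TGFB KO or wild type array was left out (0.0533 to 0.0943) and the second without any INFko TGFB+ array (0.0585 to 0.0639). Serpinc1, antithrombin, had -0.68 ± 0.21 in both (adjusted p = 0.0322 and 0.0294). Its first call was lost without any wild type array or without array 1 or 2 of TGFB KO (0.0564 to 0.105), and its second without any INFko TGFB+ array or array 2 of IFNko TGFB1 KO (0.0763 to 0.0843). Proz, protein Z, which helps inhibit factor Xa and lies beside F10, had -1.25 ± 0.44 in TGFB KO (adjusted p = 0.0596) and -1.49 ± 0.44 in IFNko TGFB1 KO (adjusted p = 0.0265), the second lost without any INFko TGFB+ array or array 2 of IFNko TGFB1 KO (0.0667 to 0.0814). A second Proz probe set passed in both, with -1.25 ± 0.32 and -1.48 ± 0.32 (adjusted p = 0.0196 and 0.00817 over 22941 probe sets). Pros1, protein S, the protein C cofactor, which several cell types make, had 0.43 ± 0.21 and 0.36 ± 0.21 and passed in neither (adjusted p = 0.155 and 0.23). The second Pros1 value was 0.55 without array 1 of IFNko TGFB1 KO and 0.22 without array 2.

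In fibrinolysis, Serpinf2, the plasmin inhibitor alpha 2-antiplasmin, had 5470 ± 916 in TGFB KO against 10214 ± 1096 in wild type and 5632 ± 1840 in IFNko TGFB1 KO against 10264 ± 571 in INFko TGFB+ (SD, n = 3). Its log2 fold changes were -0.93 ± 0.21 (adjusted p = 0.00814, but 0.052 with median centring) and -0.87 ± 0.21 (adjusted p = 0.0111). Plg, plasminogen, the enzyme it restrains, had -0.71 ± 0.30 (adjusted p = 0.113) and -1.04 ± 0.30 (adjusted p = 0.0258, and 0.0606 to 0.0797 without any INFko TGFB+ array). Without array 2 of IFNko TGFB1 KO, Plg passed as lower in TGFB KO too (adjusted p = 0.00522). Hrg, histidine-rich glycoprotein, which binds plasminogen and heparin, read 1836, 775 and 2224 in IFNko TGFB1 KO, against 6126, 5883 and 6224 in INFko TGFB+, a log2 fold change of -1.93 ± 0.35 (adjusted p = 0.00218). It read 2850, 3824 and 4093 in TGFB KO and 4632, 4352 and 6363 in wild type, a log2 fold change of -0.43 ± 0.35 (adjusted p = 0.417). The difference of the effects was -1.50 ± 0.49 and missed the threshold (adjusted p = 0.237).

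**Figure D4:**
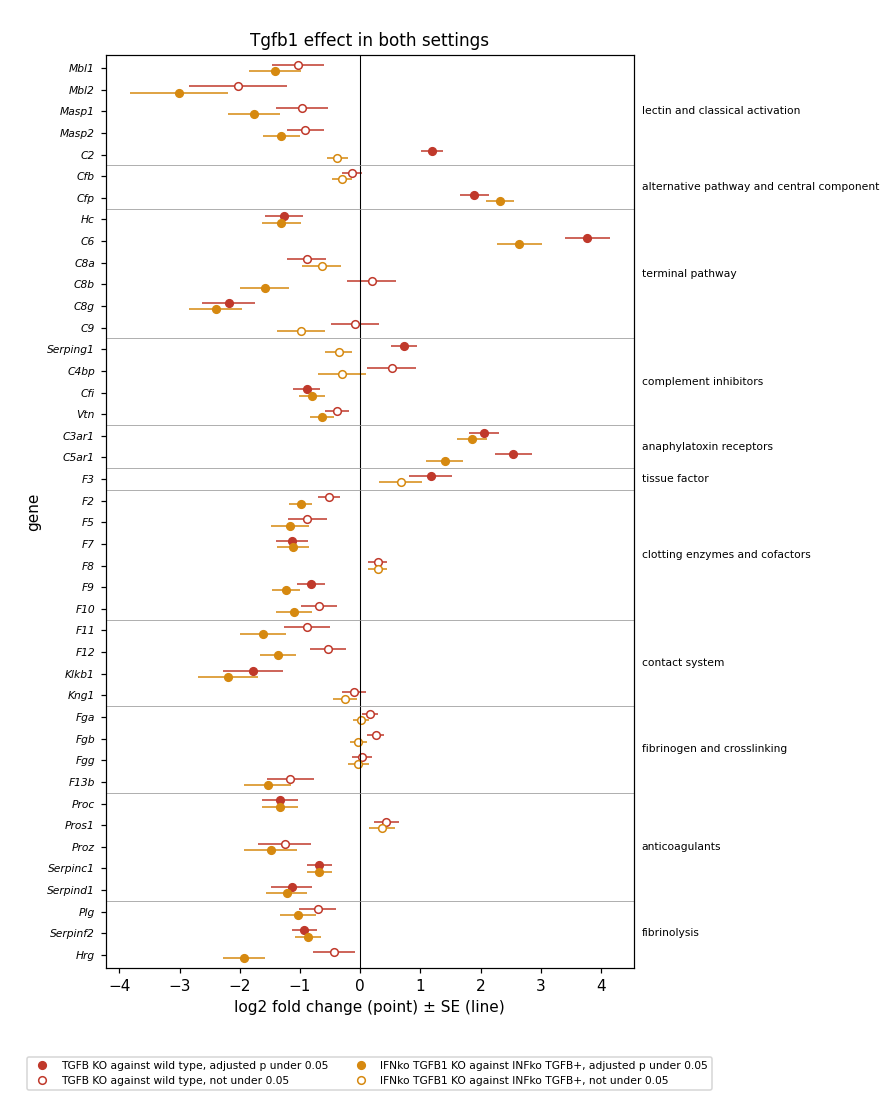
Points are log2 fold changes of the 42 genes and lines their SE, for TGFB KO against wild type and IFNko TGFB1 KO against INFko TGFB+, with filled points for an adjusted p under 0.05. C6 lies farthest right in both (3.77 and 2.64), and Mbl2 farthest left in IFNko TGFB1 KO (-3.01), a place it does not keep without array 2 of that group (-1.65, against -1.71 for C8g).

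Hepatocyte markers give the setting of these falls. None of 13 hepatocyte markers was higher or lower in TGFB KO (limma; also 0 and 0 at an unadjusted p under 0.05), with a median log2 fold change of 0.00, and in IFNko TGFB1 KO 4 of 13 were lower, Apoc3, Hpd, Serpina1c and Cps1. Over all genes, 13.1% were lower in IFNko TGFB1 KO. Several of the hepatocyte markers, such as Apoa1 and Alb, are among the brightest on the array and are held in place by quantile normalization. The summed deposited signal of the list was 186843 to 226840 in TGFB KO against 264575 to 266806 in wild type, and 131705 to 218665 in IFNko TGFB1 KO against 230424 to 279969 in INFko TGFB+. Array 2 of IFNko TGFB1 KO had the lowest of these sums, the highest T cell sum of the 12 (3419, against at most 199 in INFko TGFB+) and the highest macrophage sum of its group. The part of cell composition in the lower signals was not tested.

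Without Tgfb1, livers labelled as lacking Ifng differed from those with Ifng intact in few of the 42 genes. In IFNko TGFB1 KO relative to TGFB KO none was higher and 4 were lower, C8b, C2, C6 and Serping1 (limma; 0 and 10 at an unadjusted p under 0.05), where 2.54% of all genes were higher and 2.82% lower. All 4 are complement genes, but Hrg of fibrinolysis also passed as lower with the deposited scaling (adjusted p = 0.0468), median centring (0.0206), a pseudocount of 64 (0.0351), the filter at the 60th percentile, sex as a term (0.0291) or without array 3 of IFNko TGFB1 KO (0.0447). These arrays are shared with the comparisons above, and the values per array are given there. The shares over all genes are for the adjusted p, and none is set beside the unadjusted counts of 0 and 10. The 42 genes had a median log2 fold change of -0.22, or 0.08 without array 2 of IFNko TGFB1 KO, and all genes 0.02. C2 had a log2 fold change of -1.67 ± 0.18 (adjusted p = 0.000266), C8b -1.82 ± 0.41 (adjusted p = 0.0269), C6 -1.47 ± 0.37 (adjusted p = 0.0438) and Serping1 -0.95 ± 0.22 (adjusted p = 0.0305). C2 passed without each array in turn. C8b was lost without any TGFB KO array or without array 1 of IFNko TGFB1 KO (0.0549 to 0.0971). C6 was lost without 8 of the 12 arrays (0.0534 to 0.134), those being wild type 2 and 3, all TGFB KO, INFko TGFB+ 3 and IFNko TGFB1 KO 1 and 3. Serping1 was lost without 8 arrays too (0.052 to 0.088), namely all TGFB KO, all INFko TGFB+ and IFNko TGFB1 KO 1 and 2. Without array 2 of IFNko TGFB1 KO the counts were 2 higher, C8a and C8g, and 4 lower, with C5ar1 in and Serping1 out, and without array 1 they were 0 and 1, C2.

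Where Tgfb1 was kept, no gene passed between INFko TGFB+ and wild type livers. None of the 42 was higher or lower (limma; also 0 and 0 at an unadjusted p under 0.05), where 0% of all genes were higher and 0% lower, with 329 and 321 of the 12760 genes at an unadjusted p under 0.05. The log2 fold changes ran from -0.34 to 0.63 with a median of 0.05. The widest was Proz, with 0.63 ± 0.44.

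**Figure D5:**
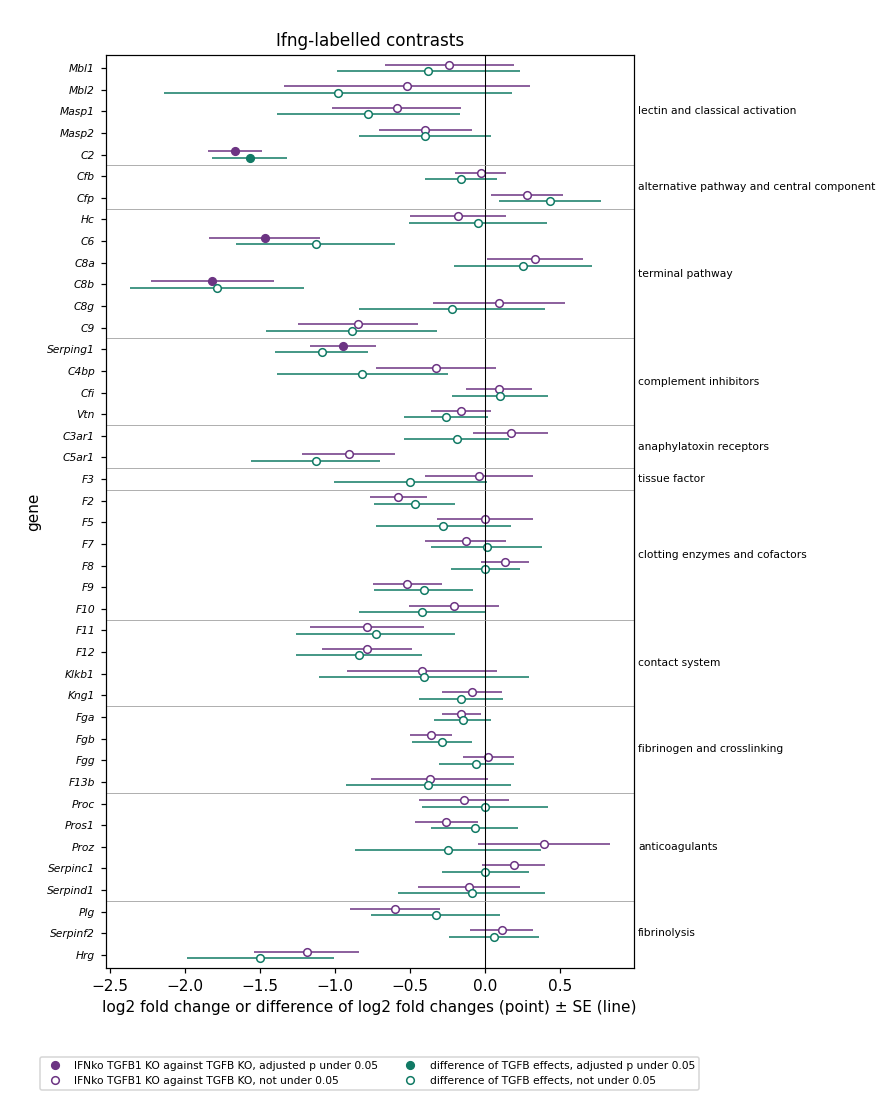
Points are log2 fold changes of IFNko TGFB1 KO against TGFB KO, and differences of the Tgfb1 effects (Ifng-deficient minus Ifng-intact background), for the 42 genes, with SE as lines and filled points for an adjusted p under 0.05. C2 is filled for both quantities (-1.67 and -1.57), and no clotting or fibrinolysis gene is filled for either.

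The rest of the pathway was read from a further list of 57 genes, of which 46 had a probe set and 43 were tested. Of these, 17 were higher and 7 lower in TGFB KO, and 20 higher and 9 lower in IFNko TGFB1 KO, with medians of 0.50 and 0.62. The shares over all genes were 12.2% higher and 11.9% lower, and 12.7% and 13.1%, so the lower counts lie near the background. The C1q chains, made by macrophages, rose together. C1qa had log2 fold changes of 2.55 ± 0.16 in TGFB KO and 2.44 ± 0.16 in IFNko TGFB1 KO (adjusted p = 2.88e-06 and 7e-06), C1qb 2.64 ± 0.15 and 2.31 ± 0.15, and C1qc 2.61 ± 0.20 and 2.44 ± 0.20. Itgb2, the beta chain of the leukocyte receptors for C3 fragments, had 2.70 ± 0.21 and 3.07 ± 0.21 (adjusted p = 7.89e-06 and 7.78e-06). The macrophage markers described above moved with these genes, and their part was not tested.

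Further genes were picked out after their values were seen. C1ra and C1s1, the C1 proteases, were lower in IFNko TGFB1 KO than in TGFB KO, by log2 fold changes of -1.66 ± 0.20 and -1.11 ± 0.22 (adjusted p = 0.000604 and 0.0128), as was C2, which C1s cleaves. Colec10, a collectin of the lectin pathway known to be made by stellate cells in mouse liver, was lower in TGFB KO (-1.15 ± 0.18, adjusted p = 0.000964) but not in IFNko TGFB1 KO (0.15 ± 0.18, adjusted p = 0.597), a difference of 1.30 ± 0.26 (adjusted p = 0.0421). Of 7 stellate cell markers, 2 were lower in TGFB KO, Lrat with 171 ± 26.0 in TGFB KO against 384 ± 12.3 in wild type and Reln with 805 ± 165 against 3397 ± 757, and in IFNko TGFB1 KO 2 were higher, Dcn and Lrat. In the difference of effects 3 of the 7 were higher, Lrat, Reln and Dcn. Over all genes, 11.9% were lower in TGFB KO, 12.7% higher in IFNko TGFB1 KO and 0.243% higher in the difference. The summed signal of the 7 was 6274 to 7404 in TGFB KO against 8596 to 11649 in wild type, and 11505 to 13824 in IFNko TGFB1 KO against 8120 to 8546 in INFko TGFB+, none of them was at 0, and their part in the Colec10 signal was not tested. The enzymes that prepare the vitamin K-dependent factors were lower in both settings, Vkorc1 by -1.23 ± 0.25 and -1.31 ± 0.25 and Ggcx by -0.88 ± 0.28 and -1.31 ± 0.28 (adjusted p from 0.00276 to 0.0385). So were Lman1 and Mcfd2, the cargo receptor for factors V and VIII, with log2 fold changes from -0.61 to -0.79. Other clotting genes were higher, namely F13a1, the factor XIII subunit of macrophages and platelets (2.49 ± 0.31 and 1.89 ± 0.31), Plat, tissue plasminogen activator (2.22 ± 0.35 and 2.84 ± 0.35), and Procr, the protein C receptor (3.19 ± 0.38 and 1.28 ± 0.38), each past the threshold in both comparisons.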

How the data were processed

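Liver RNA of 12 BALB/c mice, in 4 groups of 3 taken from the sample labels, was biotin labelled after Trizol extraction, per the labels. The deposited values are linear signal intensity for 45101 probe sets, scaled before deposit to a trimmed mean of 150.001 on each array, as the values show. The signal algorithm is not given in the sources used here. Detection calls were not used.

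A single symbol was annotated for 34958 probe sets, several for 932 and none for 9211, and 34754 symbols were brought up to date by gene identifier (RefSeq, GRCm38.p6). After quantile normalization of log2(signal + 16), the 64 control probe sets and those under the 40th percentile of the mean (log2 5.25) were left out, and the probe set with the highest mean stood for each of 12760 genes. Groups were compared with limma 3.58.1 in R 4.3.3 (lmFit with a mean per group over 12 arrays, then eBayes with 8 residual and 3.44 prior degrees of freedom). P-values are two-sided and Benjamini-Hochberg adjusted over all genes, with a threshold of 0.05. For sex as a term, an array was read as female where its Xist level was above its Eif2s3y level. The arrays read as female were wild type 2, TGFB KO 1, INFko TGFB+ 1 and IFNko TGFB1 KO 2, and the rest as male. The procedure was tested on simulated data.

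The members, the further gene lists and the tests were chosen with earlier results of these data known. By rule, values per array go to members past the threshold in the difference of effects, to the 5 largest rises and falls among called members of the first 2 comparisons and to the 3 largest of the others. Other members are given where their role is described, and of each further list the 4 genes with the smallest p.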

Additional observations from a re-analysis of the deposited data

Results flagged for a closer look

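C2 was picked out because the effect of Tgfb1 loss differed between the backgrounds by a test of the difference itself. The log2 fold change of C2 was -0.38 in IFNko TGFB1 KO against INFko TGFB+ and 1.19 in TGFB KO against wild type, and their difference was -1.57 ± 0.25 (SE; limma, adjusted p = 0.0133). On the probe set used, all 3 IFNko TGFB1 KO arrays were below all 3 INFko TGFB+ arrays. All 3 TGFB KO arrays were above all 3 wild type arrays. The other C2 probe sets, tested on their own over 22941 probe sets, gave -1.52 ± 0.32 (adjusted p = 0.0708) and -1.48 ± 0.27 (adjusted p = 0.038). Leaving out array 2 of INFko TGFB+ gave an adjusted p of 0.0537.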

How the results depend on the processing

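The count of members lower in TGFB KO than in wild type (10) was the least stable. It became 17 with a pseudocount of 64, 16 with the filter at the 60th percentile, 16 with sex as a term and 21 with the groups compared alone, and ran from 5 to 23 when 1 array was left out. The highest of these counts came without array 2 of IFNko TGFB1 KO. Counts of 6, 6 and 5 came without wild type 1, wild type 2 and TGFB KO 1. Median centring lost the TGFB KO calls of Cfi (adjusted p = 0.059), F9 (0.0524), Serpinc1 (0.146) and Serpinf2 (0.052). It gained those of Mbl2 (0.0499) and F13b (0.0357). With no filter, the calls of Serpinc1 (0.0573) and Serpind1 (0.0502) were lost. The 25 members lower in IFNko TGFB1 KO than in INFko TGFB+ became 10 with the groups compared alone and 15 to 26 with 1 array left out, with 16, 15 and 16 without arrays 1, 2 and 3 of INFko TGFB+. For IFNko TGFB1 KO against TGFB KO, the 0 higher members became 1 with the mean of all probe sets and 0 to 2 without 1 array, and the 4 lower members became 2 with no filter, 1 with the groups compared alone and 1 to 4 without 1 array, and 5 with Hrg added under 4 alternatives. The single member lower in the difference of effects ran from 0 to 2 without 1 array. The 7 and 4 members higher in the first 2 comparisons ran from 5 to 7 and stayed at 4. Calls kept without each array in turn were 4 of 7 higher and 4 of 10 lower in TGFB KO, and 4 of 4 higher and 15 of 25 lower in IFNko TGFB1 KO.

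Masp1 turned direction. In IFNko TGFB1 KO against TGFB KO it had 0.57 with the mean of its probe sets, and 0.91 and 1.17 for 2 probe sets tested on their own, an alternative chosen after seeing the data. Tested likewise, 3 of its probe sets had 0.33, 0.40 and 0.25 in IFNko TGFB1 KO against INFko TGFB+, and 1 had 1.20 in the difference of effects. A second Cfp probe set had -0.46 in IFNko TGFB1 KO against INFko TGFB+. The cause was not tested. Of the other alternatives for single members, 1960 gave the same side of the threshold, 42 lost a call and 50 gained one. Median centring moved the median of all genes by -0.144 in IFNko TGFB1 KO against INFko TGFB+, -0.162 in IFNko TGFB1 KO against TGFB KO and -0.261 in the difference of effects, and by at most 0.099 elsewhere. It gave 1448 genes higher and 893 lower in TGFB KO, against 1553 and 1524 with quantile normalization, and 988 and 1864 in IFNko TGFB1 KO against INFko TGFB+, against 1618 and 1673, and 100 and 387 in IFNko TGFB1 KO against TGFB KO, against 324 and 360. Correlations of deviations between arrays of the same number ran from -0.077 to 0.343, so the numbers do not pair the samples. With a replicate block the counts were 6 higher and 11 lower in TGFB KO and 4 and 25 in IFNko TGFB1 KO against INFko TGFB+. The block ended the calls of F3 in TGFB KO (adjusted p = 0.052) and of C6 in IFNko TGFB1 KO against TGFB KO (0.057), and gained that of Proz in TGFB KO (0.0345).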

Other observations

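A list of 20 regulators of these genes, of which 17 were tested, had 8 higher and 3 lower in TGFB KO than in wild type and 5 higher and 4 lower in IFNko TGFB1 KO than in INFko TGFB+. The shares over all genes were 12.2% higher and 11.9% lower, and 12.7% and 13.1%, so the 3 lower in TGFB KO lie near the background. Il1b, an inflammatory cytokine, had log2 fold changes of 3.71 ± 0.26 and 1.89 ± 0.26 (limma, adjusted p = 4.24e-06 and 0.000446), with a difference of effects of -1.82 ± 0.36 (adjusted p = 0.0421). Irf1, a factor induced by interferons, had 2.07 ± 0.21 in TGFB KO (adjusted p = 4.56e-05) and 0.23 ± 0.21 in IFNko TGFB1 KO (adjusted p = 0.478), with a difference of -1.85 ± 0.30 (adjusted p = 0.0157). Cebpb, an acute phase factor of the liver, rose in both, with 1.60 ± 0.20 and 1.01 ± 0.20 (adjusted p = 0.000173 and 0.00326). Socs3, the feedback inhibitor of IL-6 signalling, had 2.59 ± 0.41 in TGFB KO (adjusted p = 0.000985) and 1.17 ± 0.41 in IFNko TGFB1 KO (adjusted p = 0.0568).

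Of 6 hepatocyte transcription factors tested, 3 were lower and 1 higher in TGFB KO, and 4 lower and 1 higher in IFNko TGFB1 KO. The shares over all genes are those given for the regulators. Cebpb was the higher one, and those named here were chosen after their values were seen. Foxa2 had log2 fold changes of -1.63 ± 0.33 and -2.54 ± 0.33 (adjusted p = 0.00411 and 0.000336), Nr1h4, the bile acid receptor, -0.94 ± 0.20 and -1.75 ± 0.20 (adjusted p = 0.00597 and 0.000178), and Cebpa -1.18 ± 0.30 and -1.61 ± 0.30 (adjusted p = 0.0138 and 0.00255). Hnf4a had -0.37 ± 0.25 in TGFB KO (adjusted p = 0.33) and -0.75 ± 0.25 in IFNko TGFB1 KO (adjusted p = 0.0476).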
